A study of Mus musculus with 5 samples.

Results

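CREB peaks of the fetal mouse testis were compared between embryonic stages E16.5 and E18.5, given in days of gestation. The members were all peaks of the 2 lists on assembled chromosomes, 3526 at E16.5 and 2947 at E18.5, which together made 6473 of the 28509 such peaks in the series. Every peak was reset to 150 bp around its midpoint. A peak was called shared when the other list had a midpoint within 200 bp, and single-stage (E16.5-only or E18.5-only) when the other list had none within 1000 bp. Peaks whose nearest counterpart lay over 200 and up to 1000 bp away were kept apart as near.

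The peaks came from CUT&RUN, in which an antibody tethers a nuclease to its target so that the surrounding DNA is cut out and sequenced. Each assay used an antibody against CREB and 100000 cells of male gonads, dissociated and passed through a 70 µm filter, so all cell types of the testis were pooled. There was 1 library per stage, and the labels give no strain, genotype or treatment. CREB at E13.5 and H3K4 at E18.5 were profiled the same way and serve below as readouts that the classes did not use, and an IgG library was not analysed here. With 1 library each, stage and library cannot be told apart and no difference could be tested. The files hold positions without read counts, so depth is unknown, and a site without a peak may still be bound. Intervals in parentheses are 95% Wilson intervals and cover counting error only.

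CREB is a transcription factor that is phosphorylated by protein kinase A when cAMP rises and then recruits the coactivators CBP and p300. It binds the cAMP response element (CRE), the palindrome TGACGTCA, and more weakly the shorter core TGACG, mostly close to transcription start sites. In the testis, cAMP signalling is known for driving steroid hormone production in Leydig cells, and the related factor CREM for its role in spermatids.

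Promoters of each class are shown first, since the classes differed in how often they held the palindrome. Each line gives the 120 bases before an annotated start, 5′ to 3′ on the strand of the gene, from RefSeq's promoters on GRCm38.p6, which has the coordinates of mm10. Capitals mark the full CRE or, where there was none, the core TGACG. The bases are those next to the start and need not lie under the 150 bp peak. In Cdadc1, Fosb and Psmb5, with midpoints 209, 155 and 145 bp before the start, the marked letters lie outside it. The first 4 promoters held shared sites with a full CRE. They were Pet100 (chr8:3621431-3621550, plus strand), Senp2 (chr16:22009364-22009483, plus), H2bc11 (chr13:22043078-22043197, plus) and Pgap2 (chr7:102210391-102210510, plus).
Pet100: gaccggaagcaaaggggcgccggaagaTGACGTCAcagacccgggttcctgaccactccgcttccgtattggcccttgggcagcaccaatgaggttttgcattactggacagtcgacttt
Senp2: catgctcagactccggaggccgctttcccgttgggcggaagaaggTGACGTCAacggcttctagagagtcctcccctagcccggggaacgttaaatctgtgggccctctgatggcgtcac
H2bc11: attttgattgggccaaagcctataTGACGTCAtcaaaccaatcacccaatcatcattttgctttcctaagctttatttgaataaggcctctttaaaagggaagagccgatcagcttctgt
Pgap2: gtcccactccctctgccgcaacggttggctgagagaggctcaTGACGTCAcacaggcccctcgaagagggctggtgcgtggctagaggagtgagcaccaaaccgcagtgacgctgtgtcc
The next 5 promoters held E16.5-only sites with a full CRE. They were Aasdh (chr5:76905477-76905596, minus strand), Cdadc1 (chr14:59597960-59598079, minus), Pogk (chr1:166409829-166409948, minus), Tra2a (chr6:49264053-49264172, minus) and Ldha (chr7:46845684-46845803, plus).
Aasdh: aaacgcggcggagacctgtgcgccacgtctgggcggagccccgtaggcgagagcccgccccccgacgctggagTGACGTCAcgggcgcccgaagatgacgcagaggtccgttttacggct
Cdadc1: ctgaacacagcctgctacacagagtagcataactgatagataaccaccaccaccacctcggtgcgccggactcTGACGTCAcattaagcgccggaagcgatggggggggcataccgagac
Pogk: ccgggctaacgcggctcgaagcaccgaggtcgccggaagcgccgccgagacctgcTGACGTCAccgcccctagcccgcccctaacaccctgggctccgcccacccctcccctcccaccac
Tra2a: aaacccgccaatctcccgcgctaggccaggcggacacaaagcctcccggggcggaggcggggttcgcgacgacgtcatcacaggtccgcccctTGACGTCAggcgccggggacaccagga
Ldha: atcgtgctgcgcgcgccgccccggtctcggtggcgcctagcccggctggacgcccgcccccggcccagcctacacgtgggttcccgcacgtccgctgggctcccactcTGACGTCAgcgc
The last 5 promoters held E18.5-only sites. They were Fosb (chr7:19310046-19310165, minus strand), Ddx49 (chr8:70302472-70302591, minus), Odf2l (chr3:145118469-145118588, plus), Psmb5 (chr14:54617996-54618115, minus) and H2-Aa (chr17:34287824-34287943, minus). Ddx49 and H2-Aa are shown because they carried the only full CREs found in promoter windows of that class, and Odf2l because it held neither form in these bases.
Fosb: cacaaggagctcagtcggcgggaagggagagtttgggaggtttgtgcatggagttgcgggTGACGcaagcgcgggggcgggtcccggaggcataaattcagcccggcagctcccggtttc
Ddx49: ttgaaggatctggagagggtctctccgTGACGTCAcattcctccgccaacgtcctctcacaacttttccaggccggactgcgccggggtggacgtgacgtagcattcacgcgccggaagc
Odf2l: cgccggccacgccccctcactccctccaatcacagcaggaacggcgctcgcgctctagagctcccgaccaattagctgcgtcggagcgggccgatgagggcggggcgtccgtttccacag
Psmb5: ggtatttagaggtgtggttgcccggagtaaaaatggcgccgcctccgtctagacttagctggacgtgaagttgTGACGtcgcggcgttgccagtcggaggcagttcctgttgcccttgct
H2-Aa: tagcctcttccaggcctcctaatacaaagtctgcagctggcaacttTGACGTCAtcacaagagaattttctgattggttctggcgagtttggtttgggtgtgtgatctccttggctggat
In Senp2 the palindrome began 75 bases before the start, and in Ldha, which encodes a lactate dehydrogenase subunit, 12 bases before it.

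Most CREB sites recurred at the other stage. Of the E16.5 peaks, 2203 (62.5%, 60.9 to 64.1) had an E18.5 counterpart, and of the E18.5 peaks 2206 (74.9%, 73.3 to 76.4) had an E16.5 counterpart. E16.5-only sites numbered 1126 (31.9% of the E16.5 list, 30.4 to 33.5) and E18.5-only sites 476 (16.2% of the E18.5 list, 14.9 to 17.5). The near class held the other 197 and 265 peaks. Just inside the 200 bp limit, 98 E16.5 peaks had their counterpart 151 to 200 bp away, and just outside it 61 had theirs over 200 and up to 250 bp away. Single-stage sites seldom lay close to the 1000 bp limit, since 1071 E16.5-only and 407 E18.5-only sites were over 10 kb from any peak of the other stage.

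Midpoints of shared sites lay within 200 bp by definition, so the distances given here are cut at that limit. Over 2203 pairs the distance had a median of 37 bp (quartiles 14 and 71.5 bp), 1317 pairs (59.8%) lay within 50 bp, and the signed shift had a median of 0 bp. The best-placed pairs by list position included sites at Opa3, an outer mitochondrial membrane gene, and at Nbr1/Brca1, an autophagy receptor gene and a DNA repair gene. A further site lay at Hsd17b12, a gene of fatty acid elongation and 17-beta-hydroxysteroid metabolism. The shifts at Opa3, Nbr1/Brca1 and Hsd17b12, E18.5 minus E16.5 on chromosome coordinates, were -5, -70 and -1 bp. The other pairs of the 10 best placed lay at Cep57/Fam76b, Oaz1, Csnk1g2, Xab2/Pet100, Dact3, Foxred1/Srpr and Lrif1. The widest shift among the 10 was 162 bp, at Csnk1g2.

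**Figure D1:**
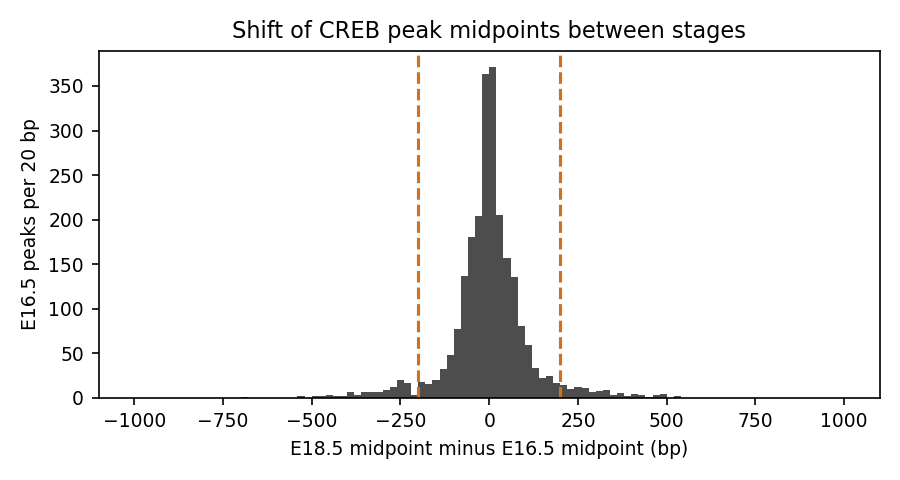
Number of E16.5 CREB peaks against the distance in bp to the nearest E18.5 midpoint (E18.5 minus E16.5), for peaks with one within 1000 bp, with dashed lines at 200 bp on either side. The 2203 shared peaks pile up around 0 bp with a median absolute shift of 37 bp, and the 197 near peaks lie beyond the lines.

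Shared sites sat at gene starts more often than single-stage sites. A midpoint within 1000 bp of a protein-coding start was found for 1960 of 2206 shared sites (88.8%, 87.5 to 90.1), 729 of 1126 E16.5-only sites (64.7%, 61.9 to 67.5) and 351 of 476 E18.5-only sites (73.7%, 69.6 to 77.5). Sites inside a protein-coding gene but away from its start made 4.22%, 14.8% and 13.0% of the 3 classes, and sites at no gene end and outside protein-coding genes 4.22%, 15.4% and 11.6%. Starts of long noncoding RNA genes held 47 shared (2.13%), 41 E16.5-only (3.64%) and 5 E18.5-only sites (1.05%). Ends of tRNA genes held 6 of 2206 shared, 7 of 1126 E16.5-only and none of 476 E18.5-only sites, counts too small to compare. Sites at a protein-coding start were not counted for either kind, nor sites at a long noncoding RNA start for tRNA genes. Of the sites at a start, 19.4% of the shared, 14.4% of the E16.5-only and 14.2% of the E18.5-only sites lay at the starts of 2 or more genes.

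**Figure D2:**
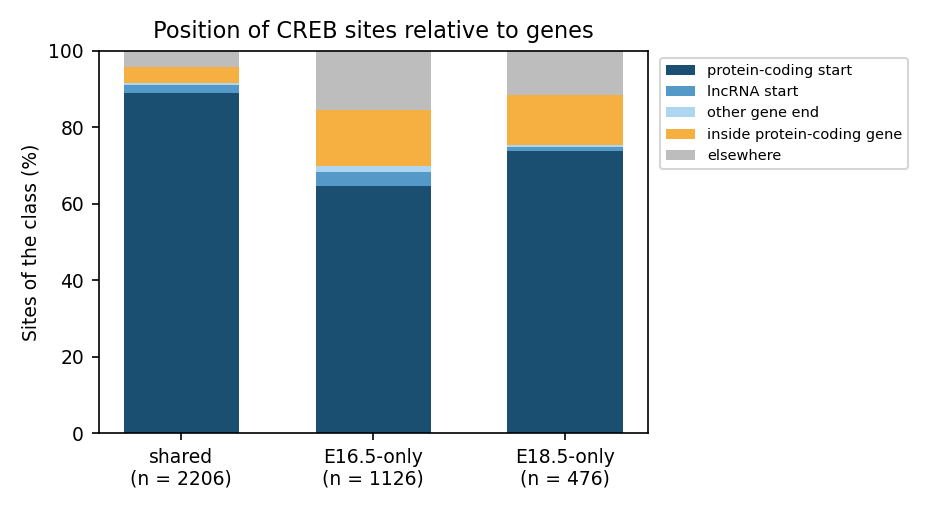
Share of CREB sites (percent) by location as stacked bars for the shared (2206), E16.5-only (1126) and E18.5-only (476) sites. Protein-coding starts hold 88.8% of shared, 64.7% of E16.5-only and 73.7% of E18.5-only sites.

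At gene starts the classes shared a further feature. An H3K4 midpoint at E18.5 lay within 1000 bp of 94.3% of shared, 93.7% of E16.5-only and 91.2% of E18.5-only sites at a start. Away from starts the shares were 66.3% (60.1 to 71.9), 41.6% (36.8 to 46.5) and 32.8% (25.2 to 41.4). The labels do not say which methylation state of H3K4 the antibody recognises. H3K4 was profiled at E18.5 only, so for E16.5-only sites it shows the chromatin of the later stage.

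The classes differed in how many of their sites the E13.5 CREB list held. An E13.5 midpoint lay within 200 bp of 720 shared sites (32.6%, 30.7 to 34.6), of 9 E16.5-only sites (0.799%, 0.421 to 1.51) and of 14 E18.5-only sites (2.94%, 1.76 to 4.88). Sites of every class with an E13.5 counterpart were concentrated early in the E18.5 list. With the list cut into 3 equal parts, shared sites had one in 65.6%, 14.8% and 2.72% of the leading, middle and trailing parts, and near sites in 56.5%, 13.9% and 1.61%. E18.5-only sites had one in 12 of 23 (52.2%), 2 of 108 (1.85%) and 0 of 345. In the leading part of the E16.5 list 60.1% of shared sites, 17.4% of near sites and 2 of 46 E16.5-only sites (4.35%) had one. The order of peaks in the files does not follow position on the chromosome, and what it stands for is not given in the sources used here.

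Single-stage sites stood late in both lists. E16.5-only sites made 3.91%, 29.3% and 62.6% of the leading, middle and trailing parts of the E16.5 list, and E18.5-only sites 2.34%, 11.0% and 35.1% of those of the E18.5 list. The earliest E16.5-only site had position 366, at Rel, and the earliest E18.5-only site position 14, at Egr1. Gene-start shares fell along the lists too. Among E16.5-only sites they were 87.0%, 77.3% and 57.5% in the 3 parts, beside 91.9%, 87.3% and 83.0% of the shared sites of the same list. In the leading part the 2 intervals overlapped (74.3 to 93.9 and 90.1 to 93.4). Among E18.5-only sites they were 87.0%, 85.2% and 69.3%, beside 92.9%, 88.9% and 81.7%. List position therefore moved with the class as well as with location, and its part in the difference between classes was not tested.

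The full CRE was frequent in shared and E16.5-only promoters and rare in E18.5-only promoters. RefSeq's windows from 250 bases before to 50 after a start were searched on both strands, and a site was scored when its midpoint lay in such a window. A site in several windows held a motif when any of them did. Window counts of a class are thus counts of scored sites. Those over all promoters and over promoters without CREB are counts of single windows. TGACGTCA occurred in 2.23% of all 21263 protein-coding windows and in 0.604% (49 of 8113) of windows with H3K4 and no CREB site. It occurred for 174 of 1337 scored shared sites (13.0%, 11.3 to 14.9) and 62 of 363 E16.5-only sites (17.1%, 13.6 to 21.3). Among scored E18.5-only sites it occurred for 2 of 247 (0.810%, 0.222 to 2.90). Counted by their E16.5 peaks, shared sites held it in 13.8%. The interval of the E18.5-only share included both background shares, while those of the other classes lay above them.

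The 2 E18.5-only sites with a full CRE in a window lay at Cope/Ddx49 and H2-Aa, and the promoters of Ddx49 and H2-Aa are printed above. The Cope/Ddx49 site served 2 genes, a coatomer subunit gene and an RNA helicase gene. Both sites also had an E13.5 midpoint, 27 and 2 bp away. Among the 241 E18.5-only windows without an E13.5 midpoint none held the palindrome, a count that allows up to 1.24%.

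The shorter core TGACG, which the full CRE also contains, followed a flatter gradient. It occurred in 23.6% of all windows, in 70.3% of shared, 65.6% (60.5 to 70.3) of E16.5-only and 39.3% (33.4 to 45.5) of E18.5-only windows. Without a full CRE the core was present in 57.3%, 48.5% and 38.5% of the 3 classes. Promoters of E18.5-only sites such as Fosb and Psmb5, a catalytic proteasome subunit gene, showed the core alone.

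Other promoter motifs differed less or in the other direction. CCAAT, the box bound by the factor NF-Y, was in 38.2% of all windows, 57.9% of shared, 45.2% (40.1 to 50.3) of E16.5-only and 57.5% (51.3 to 63.5) of E18.5-only windows. GGGCGG, bound by Sp family factors, was in 75.8%, 71.6% and 75.7% of the 3 classes. CCGGAAG, bound by ETS factors, was in 23.2%, 23.7% and 21.5%. TGAGTCA, the AP-1 element, was in 3.52%, 1.10% and 4.45%, and CACGTG, the E-box, in 10.5%, 11.0% and 11.7%. Over all windows these 4 motifs were in 46.2%, 11.6%, 4.66% and 7.84%. In H3K4 windows without CREB they were in 67.0%, 17.1%, 3.22% and 10.1%, and CCAAT in 32.8%. The NRF1 element, the TATA box TATAAA and CAAGGTCA, bound by NR5A1, were each in under 8% of windows of any of the 3 classes. Median GC content was 61.3% in shared, 61.3% in E16.5-only and 62.0% in E18.5-only windows. A match is a description of the letters and not a bound site.

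Within the E16.5 list the palindrome followed list position. In E16.5-only windows it occurred in 9 of 20 (45.0%, 25.8 to 65.8), 38 of 138 (27.5%, 20.8 to 35.5) and 15 of 205 (7.32%, 4.48 to 11.7) of the leading, middle and trailing parts. Shared windows of the same list held it in 21.0%, 9.01% and 2.35%, below the E16.5-only share in each part. In the middle part the intervals, 20.8 to 35.5 and 6.66 to 12.1, did not overlap. In the E18.5 list shared windows held it in 11.9%, 14.8% and 12.3%, with no such slope, and E18.5-only windows in 8.33% (1 of 12), 1.47% (1 of 68) and 0% (0 of 167).

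**Figure D3:**
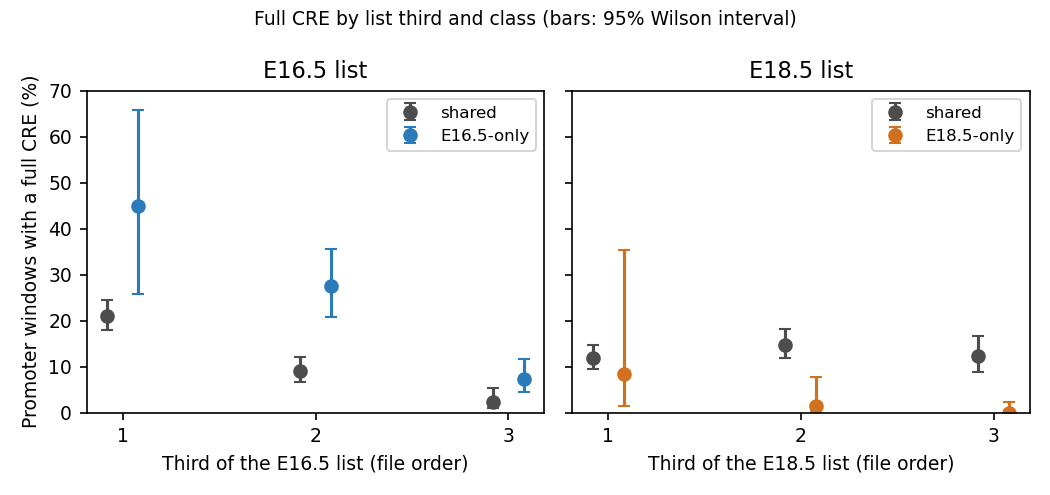
Share of promoter windows (percent) that hold the full CRE in the leading, middle and trailing parts of the E16.5 and E18.5 lists, for shared and single-stage sites, with 95% Wilson intervals for counting error. E16.5-only windows go from 45.0% to 7.32% and lie above the shared windows of their list in every part, while E18.5-only windows reach at most 8.33%.

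The E16.5 midpoints lay closer to the palindrome. In shared windows the median distance from the midpoint to the centre of the CRE was 23.5 bp by the E16.5 peak and 59.5 bp by the E18.5 peak, and in E16.5-only windows it was 20.5 bp. Over 166 shared sites scored at both stages, the E16.5 midpoint was the closer one in 116 and the E18.5 midpoint in 45. The same did not hold for CCAAT, whose median distance in shared windows was 31 bp by the E16.5 peak and 32 bp by the E18.5 peak. The deposited peaks were mostly 630 bp wide at E16.5 and 160 bp wide at E18.5, and the part of that width in the distances was not tested.

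**Figure D4:**
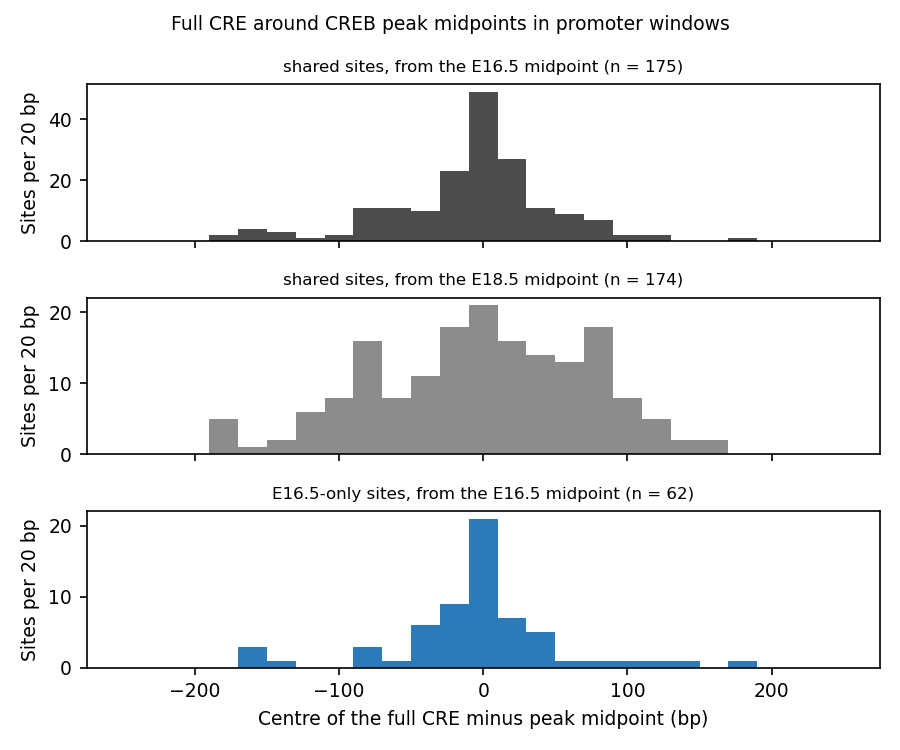
Number of sites against the distance in bp from the peak midpoint to the centre of the full CRE in promoter windows, for shared sites from the E16.5 midpoint (175), shared sites from the E18.5 midpoint (174) and E16.5-only sites (62). The top and bottom panels peak at 0 bp with median absolute distances of 23.5 and 20.5 bp, and the middle panel is broader with 59.5 bp.

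Sites also differed in where they lay around the start. Only sites within 1000 bp of a start of known strand were used. These were 1692 and 1688 shared sites by their E18.5 and E16.5 peaks, 611 E16.5-only and 300 E18.5-only sites. Relative to the direction of transcription the median midpoint was 68 bp upstream for shared sites by their E18.5 peak, 53 bp upstream by their E16.5 peak, 29 bp upstream for E16.5-only sites and 76.5 bp upstream for E18.5-only sites. Upstream midpoints made 72.9%, 71.3%, 60.1% and 79.7% of these sites.

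Of 21887 protein-coding genes, 2326 (10.6%) had a shared site at a start, 816 (3.73%) an E16.5-only site without any E18.5 peak at a start, and 387 (1.77%) an E18.5-only site without any E16.5 peak at a start. These 3 percentages are the background for each gene list below. E16.5-only genes were 67.8% of the 1203 single-stage genes. An H3K4 peak at an end was found for 96.7%, 95.5% and 94.8% of the 3 gene classes, against 55.8% of all protein-coding genes. Counts of list members are descriptive, since nearby genes can share a site. With single-stage shares this low, a small list would hold very few members of either single-stage class. Having none of a class therefore does not set a small list apart.

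The single-stage sites at known cAMP-induced targets were E18.5-only. Of 36 genes, 15 (41.7%) had a shared site, none had an E16.5-only site and 3 (8.33%) had an E18.5-only site. Over all protein-coding genes the shares were 10.6%, 3.73% and 1.77%. Having no E16.5-only member therefore does not set this small list apart. The shared members included Fos, an immediate early transcription factor, with midpoints 151 bp (E16.5) and 165 bp (E18.5) from the start and list positions 70 and 22. They also included Per1, a clock repressor, with midpoints 142 and 61 bp from the start and positions 56 and 44. Nr4a1, an orphan nuclear receptor of the immediate early response, had its shared site at an internal start, 135 and 74 bp away. Dusp1, a phosphatase of MAP kinases, and the early response gene Ier2 were shared too.

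The 3 E18.5-only targets are immediate early transcription factors. Egr1 had a site 240 bp from its start (chr18:34860892-34861041) at position 14 of the E18.5 list, with an H3K4 midpoint 49 bp away, and the nearest E16.5 midpoint lay 71112 bp away. The Fosb site (chr7:19310125-19310274) stood at position 45, 82 bp from its nearest annotated start. The printed Fosb promoter belongs to another start, 155 bp from the midpoint. An E13.5 midpoint lay 14 bp and the nearest E16.5 midpoint 9955 bp from this site. Junb had a site 109 bp from its start at position 1884, and the nearest E16.5 midpoint lay 12547 bp away. The sites at Egr1 and Fosb thus stood among the first peaks of the list and the Junb site in its middle part. Fosb and Junb each had a further E18.5-only site within the gene or 1000 bp of it.

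In CREB's own pathway the single-stage genes were E16.5-only. Of 30 genes of the CREB family, its coactivators and protein kinase A, 7 were shared, 6 E16.5-only and none E18.5-only. The E18.5-only share over all protein-coding genes was 1.77%, so this absence does not set the list apart. The shared members included Creb1 itself and the related factors Crem and Creb3l2, the kinase genes Prkaca (catalytic subunit of protein kinase A) and Prkar1b (a regulatory subunit), and Sik1, a salt-inducible kinase that restrains CREB's coactivators. The Creb1 midpoints lay 122 and 101 bp from the start at positions 2709 and 2126, and those of Crem 305 and 247 bp from it at positions 543 and 650. The E16.5-only members were Prkar1a, another regulatory subunit, Pde8a, a cAMP phosphodiesterase, Crebbp, which encodes CBP, Sik2, Sik3 and Creb5. Prkar1a stood at position 1761 with a full CRE centred 8.5 bp from the midpoint, and the other 5 stood between positions 2351 and 3038. All 6 thus stood in the middle or trailing part of the list.

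At cholesterol genes, too, the single-stage sites were E18.5-only. Of 30 genes, 14 (46.7%) had a shared site, none an E16.5-only site and 3 an E18.5-only site. The E16.5-only share over all protein-coding genes was 3.73%, so this absence does not set the list apart. The shared members included Srebf2, the transcription factor that activates the pathway, at positions 83 and 138, and the mevalonate pathway genes Pmvk and Idi1. The later enzyme genes Cyp51 and Hsd17b7 were shared too. The Idi1 midpoints lay 5 bp apart. The E18.5-only members were Npc1, a cholesterol exporter of lysosomes, and the sterol enzymes Lss and Sqle, at positions 2047, 2844 and 2863, all in the trailing part of the E18.5 list.

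Of 27 steroidogenic and Leydig cell genes, 4 (14.8%) had a shared site and none a single-stage site, against 10.6% shared over all genes. The 4 were Hsd17b12, Fdxr (ferredoxin reductase, which feeds electrons to mitochondrial steroid enzymes), Srd5a1 (a steroid 5-alpha reductase) and Por (which feeds electrons to microsomal cytochromes P450). Star, which moves cholesterol into mitochondria, had its nearest E16.5 and E18.5 midpoints 160767 and 160784 bp from its start, although an H3K4 peak lay at its start. For Nr5a1, the nuclear receptor that drives steroidogenic genes, the nearest midpoints lay 212052 and 212062 bp away. Insl3, a Leydig cell hormone gene, had them 17531 and 78232 bp away.

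Few marker genes of the other testis cell types had a CREB site, in lists that were small. Of 23 Sertoli cell genes 1, the transferrin gene Trf, had an E16.5-only site, 818 bp from a start, and none had a shared one. None of 30 germ cell, 14 endothelial and 14 macrophage genes had a CREB site at a start, nor did any of 20 interstitial genes outside the near class. Over all protein-coding genes 10.6% had a shared, 3.73% an E16.5-only and 1.77% an E18.5-only site. At these shares a list of 14 genes would hold few members. H3K4 peaks at an end were present for 12 Sertoli, 14 Leydig, 7 germ cell, 5 endothelial, 6 macrophage and 10 interstitial genes. Such a peak was present for 96.7% of genes with a shared site and 55.8% of all protein-coding genes. H3K4 midpoints lay 192 bp from the start of Sox9 and 455 bp from that of Amh, both genes of Sertoli cells, and 8203 bp from that of Ddx4, a germ cell gene. In these pooled cells a site in a few cells of 1 type and a weak site in all cells cannot be told apart. The 39 Hox genes and the 1106 olfactory receptor genes had no site at a start in either stage. Of these, 12 and 2 genes had an H3K4 peak at an end.

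Of 27 unfolded protein response genes, 12 (44.4%) had a shared site, 2 an E16.5-only site and 4 an E18.5-only site. The shared members included Hsp90b1, a chaperone of the endoplasmic reticulum, Xbp1, a transcription factor of the response, and Eif2ak3, a stress sensor kinase. Edem1 and Creld2 were E16.5-only. Atf6b, Pdia4, Calr and Dnajc3 were E18.5-only, at positions 1176, 1378, 1883 and 2107. Among 87 DnaJ and heat shock genes the counts were 30, 8 and 6. The E16.5-only members include Hspa1a, Hspa1b and Hspa1l, of which Hspa1a and Hspa1b are near-identical copies, so reads there may have been split between them.

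Glycolysis and TCA cycle genes and NF-kB genes had E16.5-only but no E18.5-only members. Over all protein-coding genes these shares were 3.73% and 1.77%, so having no E18.5-only member does not set lists of this size apart. Of 42 glycolysis and TCA cycle genes, 16 (38.1%) were shared, 6 (14.3%) E16.5-only and none E18.5-only. Shared members included Ogdh and Mdh2 of the TCA cycle. The E16.5-only members were Ldha, Pdha1 (a pyruvate dehydrogenase subunit), Cs (citrate synthase), Hk1 (hexokinase), Eno1 (enolase) and Pgam1. The Ldha site stood at position 1585, 28 bp from the start, with a full CRE centred 19.5 bp from the midpoint. Of 30 NF-kB and innate immunity genes, 3 were shared (Nfkb2, Stat3 and Traf2), 6 E16.5-only and none E18.5-only. The 6 were the NF-kB subunit genes Rel and Rela, the kinase genes Ikbkb and Chuk, Irf1 and Stat2. Rel stood at position 366 (chr11:23771162-23771311), 268 bp from a start, and Stat2 at position 3491, so only Rel was in the leading part of the list.

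Cell cycle and clock lists had more E16.5-only than E18.5-only members, on small counts. E16.5-only genes also prevailed among all single-stage genes (67.8%). Of 43 cell cycle and replication genes, 13 were shared, 6 (14.0%) E16.5-only and 1 (2.33%) E18.5-only. Over all protein-coding genes the E16.5-only share was 3.73% and the E18.5-only share 1.77%. Ccna2 (cyclin A), Pcna (the sliding clamp of replication) and Mcm4 and Mcm5 of the replicative helicase were shared, Cdk2, Cdk4, Ccne1, Mcm7, Gmnn and Top2a were E16.5-only, and Mcm3 was E18.5-only. Of 22 clock genes, 8 were shared, among them Per1, Per2, Cry2, Nr1d2, Csnk1d and Dbp. Arntl, the activator that pairs with CLOCK, and the kinase gene Csnk1e were E16.5-only (9.09% of the list). Of 15 polyamine genes, Oaz1 (antizyme, at positions 6 and 1) and Amd1 were shared and Azin1, Mat2a and Paox were E16.5-only.

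Large housekeeping groups differed in how much of them was shared. Shared sites were found for 33 of 84 cytosolic ribosomal protein genes (39.3%), 33 of 81 splicing factor and hnRNP genes (40.7%), 13 of 78 mitochondrial ribosomal protein genes (16.7%) and 14 of 79 oxidative phosphorylation genes (17.7%). Cytosolic ribosomal protein genes had 3 E16.5-only (Rpl23, Rps16, Rpl26) and 5 E18.5-only members (Rpl22, Rpl36, Rpl31 and Rplp1 among them). Vesicle coat and ER to Golgi transport genes had 15 shared, 11 E16.5-only and 2 E18.5-only members of 79, and the E16.5-only ones included Tmed10, Sec62 and Sec61b. Among 397 Zfp zinc finger genes the counts were 60, 20 and 5, and among 60 cilium genes 17, 7 and 1. Over all 49 lists the median shared percentage was 18.4%, and 11 lists had more E18.5-only than E16.5-only members.

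**Figure D5:**
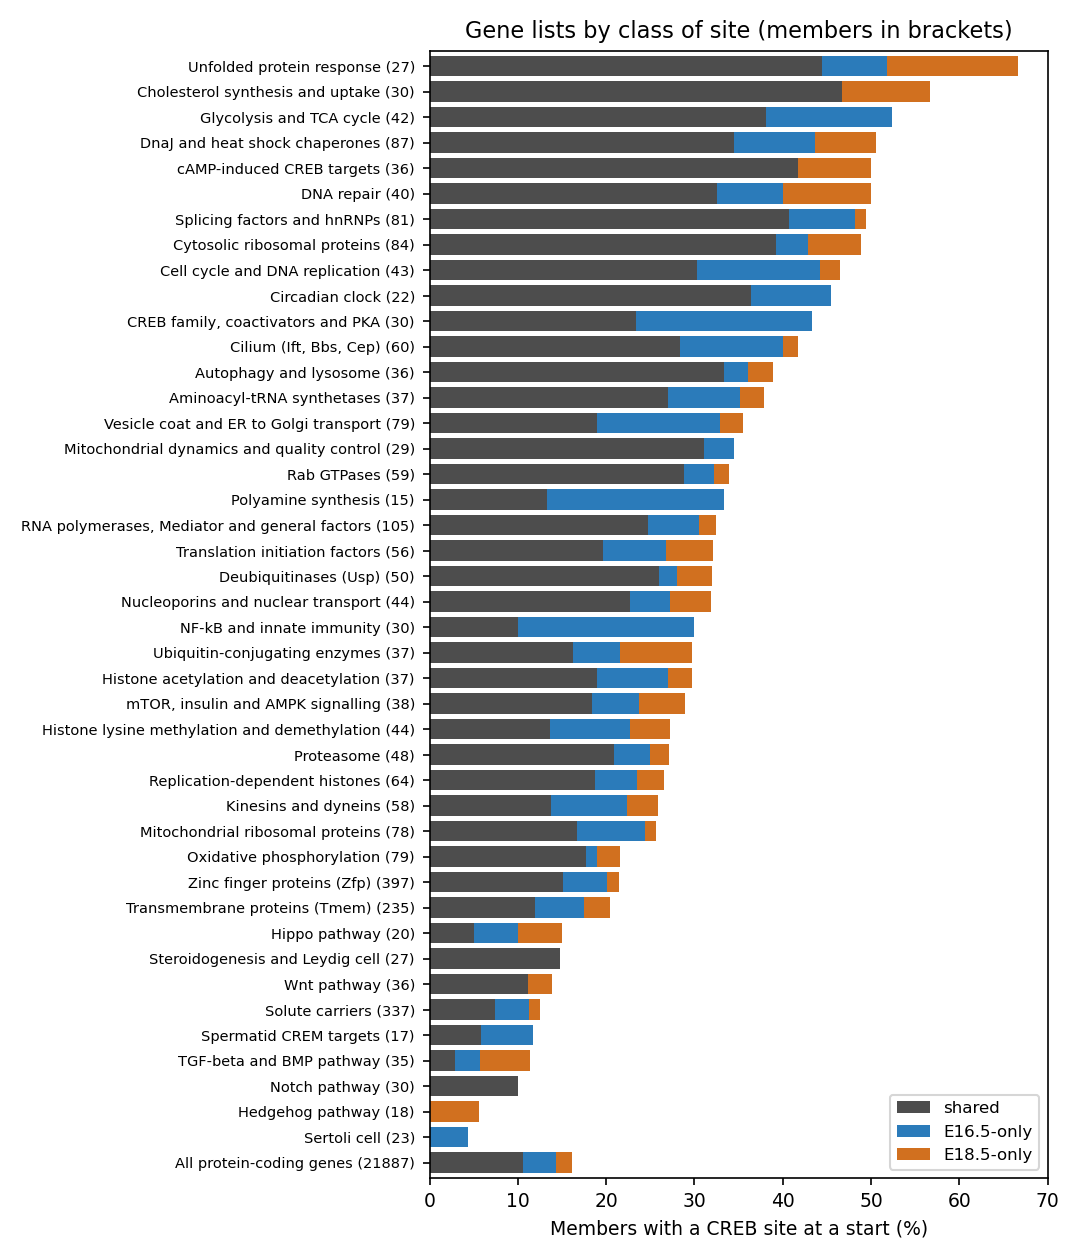
Share of the members of each gene list (percent) with a shared, E16.5-only or E18.5-only CREB site at a start, as stacked bars, with the same over all protein-coding genes at the bottom (10.6%, 3.73% and 1.77%) and lists without such a member left out. The cAMP target and cholesterol lists have E18.5-only but no E16.5-only members, and the CREB pathway, NF-kB and glycolysis lists the reverse. These counts are small, and an absence is close to the low background share.

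The earliest single-stage sites at gene starts are named here by list order. At E16.5 the first 12 included sites at Rel, Tead1, Atp6v0c, Ing5, Pinx1, Exosc7/Zdhhc3, Aasdh, Usp9x, Slc25a16, Dusp5 and Fancd2/Emc3. Tead1 encodes a transcription factor of the Hippo pathway and Atp6v0c a subunit of the vacuolar proton pump. Of these 12, 1 (Usp9x, 195 bp) had an E13.5 midpoint within 200 bp. At E18.5 the first 12 lay at Egr1, Fosb, Cope/Ddx49, Ccdc138, Osbpl9, Odf2l, Psmb5, Ctr9, Tmem60/Phtf2, Sin3a, Tbc1d32 and Usp48. Of these 12, 9 had an E13.5 midpoint within 62 bp, so most of the earliest E18.5-only sites were called at E13.5 and E18.5 but not at E16.5. The nearest E16.5 midpoints of these 9 lay between 9955 bp (Fosb) and 1303485 bp (Tbc1d32) away. The deposited peaks were mostly 150 bp wide at E13.5 and 160 bp at E18.5, but 630 bp at E16.5. Stage and such differences between the lists cannot be told apart here.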

How the data were processed

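CUT&RUN libraries of fetal mouse testis of each antibody and stage were identified from the labels, with 1 library per group. Per the submitters' processing notes, the authors used mm10 with Trim Galore 0.6.10, Bowtie2 2.5.2 and MACS2. For peak calling, settings and any use of the IgG library were not given in the sources used here, and that library, whose labels give differing stages, was not analysed here. The deposited files hold chromosome, start and end of each peak, without score or count, and the meaning of their order is not given.

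Peaks on scaffolds were left out. The lists held 834 (E13.5), 3526 (E16.5), 2947 (E18.5) and 21202 (H3K4) peaks on assembled chromosomes. Genes came from RefSeq GRCm38.p6. A start was used where the strand was known (17492 of 21887 protein-coding genes, 79.9%), together with tabulated alternative starts, and either outer end otherwise. No genome was used, so introns, exons and UTRs are not stated. Motifs were searched on both strands of tabulated 300-base promoters, which held 1664 E16.5 and 1706 E18.5 midpoints. The table lacks some starts.

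Members and the 49 gene lists (27 by symbol, 22 by symbol pattern) were chosen with earlier results of these data known. Named genes are the 10 shared sites with the best mean list position, the first 12 sites of each single-stage class at starts, up to 6 shared and 8 single-stage members per list, up to 6 genes per class with several sites, and 12 fixed genes. Printed promoters and genes of the closing observations were chosen after their values were seen. Some genes these rules select are not reported here.

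No test was made. Shares carry 95% Wilson intervals, and a count of 0 allows up to 3. Alternatives changed distances, windows, list lengths and gene ends. Python 3.11.15, numpy 2.4.6, pandas 2.3.3, scipy 1.17.1 and matplotlib 3.10.9 were used, and the code was tested on simulated data.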

Additional observations from a re-analysis of the deposited data

Results flagged for a closer look

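The E18.5 CREB list held 10 peaks on unplaced or unlocalised scaffolds, which no comparison used. The E16.5 list held 2 such peaks, the E13.5 list 28 and the H3K4 list 9.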

How the results depend on the processing

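Each stage has 1 library of unknown depth and no control library was analysed here, so a site missing from a list may lie below that list's limit. No paired analysis was possible because each stage has 1 library and no value comes from a test. Of 69 alternatives to 22 results, 38 were scored as unchanged and 31 as moved. A share was scored as moved when it left its 95% interval. Counts of sites, genes and list members were scored by a looser limit on their fold change, not by counting error. The E16.5-only count, 1126 as reported, was scored as unchanged although it was 1323 with single-stage judged at 200 bp. Percentages shared, E16.5 before E18.5, were 54.3 and 65.0 with midpoints within 100 bp, 67.9 and 83.1 within 500 bp, 67.1 and 81.3 by overlap at deposited widths, and 70.0 and 70.1 with lists of equal length. The E18.5-only class held 741 sites when no E16.5 midpoint within 200 bp was required. Gene-start percentages of E16.5-only sites were 67.6 with that 200 bp limit, 72.5 with lists of equal length, 61.0 with a 500 bp window and 69.8 over all genes. Those of shared sites were 86.2 with a 500 bp window and 91.6 over all genes. For shared, E16.5-only and E18.5-only sites they were 91.0, 67.6 and 80.0 with a 2500 bp window. With both outer ends of every gene, and without the tabulated alternative starts, they were 82.1, 58.2 and 68.7. H3K4 percentages of the 3 classes were 76.1, 65.2 and 60.9 within 500 bp, and 95.3, 78.5 and 82.6 within 2000 bp. The full CRE was in 8.38% of shared windows when it had to lie within 75 bp of the midpoint, in 23.6% of E16.5-only windows with lists of equal length, and in 0% of E18.5-only windows without an E13.5 midpoint. An E13.5 midpoint lay within 100 bp of 30.3% of shared sites. Alternatives on both outer ends, the CRE and the E13.5 distance were chosen after seeing the data. The cause of the moves was not tested, beyond the wider or narrower limits themselves.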

Other observations

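At and near H2-Aa and H2-Ab1, a pair of MHC class II genes chosen after their values were seen, 3 E18.5-only sites had an E13.5 counterpart. A site 76 bp from the start of H2-Aa (chr17:34287824-34287973) had an E13.5 midpoint 2 bp away and a full CRE centred 5.5 bp from the midpoint, and its nearest H3K4 midpoint lay 21864 bp away. A further site 3905 bp outside H2-Aa and one 1511 bp outside H2-Ab1 had E13.5 midpoints 12 and 11 bp away. Their nearest E16.5 midpoints lay 4537 and 1434 bp away.

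Genes with 2 single-stage sites within the gene or 1000 bp of it numbered 8 for E16.5 and 5 for E18.5. The E16.5 genes included Maml3, a Notch coactivator gene, Msi2, an RNA-binding protein gene, and Vmp1, an autophagy gene. Besides Fosb and Junb, the E18.5 genes included Sin3a, which encodes a corepressor scaffold, and Klhl36. Near sites among the early listed peaks lay at Rap2a, where the midpoints of the 2 stages were 276 bp apart, at Zfp869 (398 bp) and at the histone pair H3c1/H4c1 (433 bp).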
